A study of Mus musculus with 6 samples.

Results

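Interleukin-1 (IL-1) is a cytokine that endothelial cells (ECs) both make and answer. The data described here are the levels of 10 genes of the IL-1 family and of the inflammasome in liver ECs of young and aged mice. All 10 were found among the 24421 gene symbols of the deposited count table. They are the agonist genes Il1a, Il1b, Il18 and Il33, the antagonist gene Il1rn, the receptor genes Il1r1, Il1rap and Il1rl1, and the inflammasome genes Casp1 and Nlrp3. The list is by name, and it was drawn up with earlier results of these data known. The comparison asks which of these genes differ between the ages.

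ECs were taken by fluorescence-activated cell sorting as CD31+CD45- cells from livers of wild-type C57BL/6J mice. Per the paper, the mice were female, and gross pathology was a ground for leaving an animal out. The young group held 3 mice of 10 weeks and the aged group 3 mice of 127, 131 and 136 weeks, which are named here by those weeks. The mice carried no transgene or treatment in the labels. Strain, sex, organ and gate were thus shared by both groups. Sequencing gave single-end reads of 75 bases, and the libraries held 23001556 to 31651817 counts each.

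IL-1α and IL-1β, the products of Il1a and Il1b, bind the receptor IL-1R1, which then recruits the accessory protein encoded by Il1rap and signals through MyD88 to NF-κB. The product of Il1rn occupies the same receptor without signalling. IL-33 signals through ST2, the product of Il1rl1, with the same accessory protein, while IL-18 has receptors of its own. IL-1β and IL-18 are made as inactive precursors that caspase-1 cuts inside an inflammasome, a complex that the sensor NLRP3 can nucleate. IL-1α and IL-33 act without that cut and are known as alarmins, released from damaged cells. In the liver, macrophages are a well-known source of IL-1β, and ECs answer IL-1 with adhesion molecules and chemokines.

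The genes lie on 6 chromosomes. On mm9, Il1a (chromosome 2, 129125346 to 129135708, minus strand) and Il1b (chromosome 2, 129190306 to 129196875, minus strand) are neighbours with a gap of 54.6 kb and no protein-coding gene between them. Il1r1 (chromosome 1, 40281925 to 40373043) and Il1rl1 (chromosome 1, 40486415 to 40522260) are 113.4 kb apart, with Il1rl2 between them. The other genes are Il1rn (chromosome 2, 24192373 to 24207014), Il1rap (chromosome 16, 26581790 to 26730203), Il18 (chromosome 9, 50383378 to 50389942), Il33 (chromosome 19, 29999604 to 30035194), Casp1 (chromosome 9, 5298517 to 5307265) and Nlrp3 (chromosome 11, 59355070 to 59380458). No 75-base stretch of their protein-coding transcripts occurs in a transcript of another protein-coding gene. Whether reads were counted by strand is not given in the sources used here, and Il1a shares 11.2% of its exonic bases with Gm14023, a noncoding gene of the opposite strand. Gm14023 held 39 to 128 counts per library, against 3296 to 8505 for Il1a.

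The stretches before the transcription starts are shown for the agonist gene with the highest level, Il1a, for Il1b and Il1rn, whose levels varied most among the aged mice, and for Il33. All 10 genes matched RefSeq (GRCm38.p6), with 16 starts in all. Each line gives the 150 bases before a start, 5′ to 3′ on the gene's strand. Capitals mark matches on either strand to TATAAA (core promoter box), GGGNNNNNCC (an NF-κB pattern), TGANTCA (AP-1) and GAGGAA (an ETS core). Start 2 of Il1rn and start 1 of Il33 have no such match in their 150 bases and are not shown. The stretches are chr2:129309973-129310122 (minus strand) for Il1a, chr2:129371140-129371289 (minus strand) for Il1b, chr2:24336710-24336859 and chr2:24345221-24345370 (plus strand) for starts 1 and 3 of Il1rn, and chr19:29945640-29945789 (plus strand) for start 2 of Il33.
Il1a: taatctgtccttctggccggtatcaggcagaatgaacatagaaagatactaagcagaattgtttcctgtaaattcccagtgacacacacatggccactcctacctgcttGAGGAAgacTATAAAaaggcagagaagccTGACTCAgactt
Il1b: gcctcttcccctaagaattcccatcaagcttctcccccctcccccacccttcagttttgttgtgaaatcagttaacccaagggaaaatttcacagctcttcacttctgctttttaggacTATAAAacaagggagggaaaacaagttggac
Il1rn start 1: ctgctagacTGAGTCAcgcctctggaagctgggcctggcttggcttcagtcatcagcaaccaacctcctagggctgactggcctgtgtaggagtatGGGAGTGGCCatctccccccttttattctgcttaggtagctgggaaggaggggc
Il1rn start 3: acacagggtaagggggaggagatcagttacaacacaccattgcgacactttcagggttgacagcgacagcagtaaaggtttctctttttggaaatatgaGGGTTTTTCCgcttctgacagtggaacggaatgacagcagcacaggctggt
Il33 start 2: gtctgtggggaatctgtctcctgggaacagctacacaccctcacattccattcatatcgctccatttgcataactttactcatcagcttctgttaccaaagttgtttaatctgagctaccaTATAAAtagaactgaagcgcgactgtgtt
A TATAAA begins 32 bases before the start in Il1a, 31 in Il1b and 29 in start 2 of Il33. On the gene's strand and 36 to 24 bases before the start, that pattern occurred at 3 of the 16 starts of the 10 genes and at 592 of 32851 starts of all genes (1.8%). In the full 250 bases before a start and on either strand, TATAAA was in 12.4% of all promoters, GGGNNNNNCC in 45.8%, TGANTCA in 6.75% and GAGGAA in 23.3%. These matches describe letters and are not evidence of binding.

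The sorted cells carried the endothelial markers in all 6 mice. Pecam1, which encodes CD31, had a CPM (counts scaled to library size, with TMM factors) of 1369 to 1589 in young and 1366 to 1635 in aged ECs. The summed CPM of 14 endothelial and sinusoidal markers was 25151 to 27426 in young and 14807 to 20800 in aged ECs. Of the 14, 4 had a higher mean in aged ECs. Eng, the most abundant, lay at 4904 to 5135 in young ECs and at 4016, 4458 and 3427 at 127, 131 and 136 weeks. The sinusoidal receptor gene Stab2 lay at 2902 to 3199 in young ECs and at 504, 1760 and 542 at those ages. Lyve1, of the same list, lay at 391 to 671 in young ECs and at 661, 223 and 1506 at those ages. Ptprc, which encodes the leukocyte protein CD45, had a CPM of 1.17 to 1.704 in young ECs and of 7.57, 1.28 and 25.6 in the 127-, 131- and 136-week mice. All 10 pan-leukocyte markers had a higher mean in aged ECs, and their summed CPM was 107 to 110 in young ECs and 132, 105 and 389 at 127, 131 and 136 weeks. The largest part of that sum was Lcp1, at 79.3 to 86.9 CPM in young ECs and 59.6, 83.7 and 156 at those ages. At 127 weeks Lcp1 was thus below all young mice while the sum was above them. The sum of 12 Kupffer cell and macrophage markers was 118 to 142 in young ECs and 244, 41.1 and 566 at those ages, and 9 of the 12 had a higher mean in aged ECs. Neutrophil (7 markers), T and NK cell (11) and B cell (6) sums reached at most 9.45, 9.88 and 1.53 in young ECs and 38.9, 46.0 and 10.97 in aged ECs, each time in the 136-week mouse. The symbols Rn45s, a ribosomal RNA, and Lars2 together took 0.960% and 1.29% of the counts in the 127-week mouse and young mouse 3 and 4.68% to 5.53% in the other 4 libraries, so differences are also given within these 2 library clusters. They are given first for the cluster with many such counts. The cluster with few sets the 127-week mouse against young mouse 3 alone. The smallest p of an exact permutation test is 0.1 for 3 mice against 3, so the tests below are edgeR's, fitted over all 14612 genes that passed a minimum CPM.

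Il1a was the most abundant of the 10 genes in both groups, and Il33 the next. In FPKM, a level per length of transcript, Il1a stood at 175 ± 6.12 in young and 129 ± 57.9 in aged ECs (n = 3, SD), above 97.1% of the 18178 genes listed above 0 in the young mice. Il33 followed at 43.2 ± 2.04 in young and 49.8 ± 12.0 in aged ECs, then Casp1 at 41.0 ± 4.298 and 35.3 ± 7.69 and Il1r1 at 21.6 ± 3.597 and 24.996 ± 15.6 (n = 3, SD). Thus a pair of alarmin genes, caspase-1 and the signalling receptor led the order. Il1b and Il1rap had young FPKM of 3.78 ± 1.502 and 2.87 ± 0.378, and Il18, Il1rn and Nlrp3 of 0.595 ± 0.352, 0.306 ± 0.142 and 0.0943 ± 0.0963 (n = 3, SD). Among the young mice the ranges of neighbours in this order overlapped for Il33 and Casp1, for Il1b and Il1rap, for Il18 and Il1rn and for Il1rn and Nlrp3, and were separate for the other pairs. Among the aged mice only Il1a and Il33, and Il33 and Casp1, were separate, since Il1r1, Il1b, Il1rn, Il18 and Nlrp3 each spread widely.

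**Figure D1:**
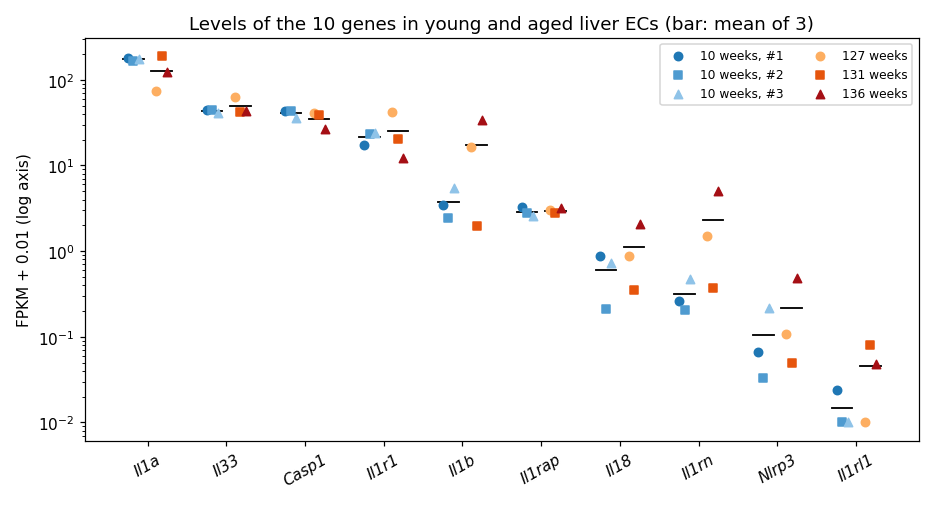
FPKM + 0.01 on a log axis for the 10 genes, ordered by their young mean, with 1 point per mouse (blue, 10 weeks; orange to red, 127, 131 and 136 weeks) and a bar at the mean of 3. Il1a lies highest in both groups, and the aged points of Il1b and Il1rn spread over more than those of Il1a, Il33 and Casp1, with the 131-week mouse at 1.94 FPKM and the 136-week mouse at 33.8 FPKM for Il1b.

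No gene of the 10 passed an adjusted p of 0.05 with a log2 fold change beyond 1 between aged and young ECs (edgeR, 9 genes tested), and neither did any of all 14612 genes (0% called). At an unadjusted p below 0.05 and the same fold, 2 of the 9, Il1b and Il1rn, were higher in aged ECs and 0 were lower, where 7.44% of all genes met it, 6.06% higher and 1.38% lower. DESeq2 called 1 of the 9, Il1rn, and 3.23% of all genes. Of the 9 genes, 7 had a higher and 2 a lower fitted level, where 7450 of all 14612 genes had a higher and 7162 a lower one. Their median log2 fold change was 0.22 against 0.0094 over all genes. For none of the 9 did the aged CPM values lie entirely on 1 side of the young values, which happened for 17.9% of all genes, 9.62% above and 8.33% below.

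**Figure D2:**
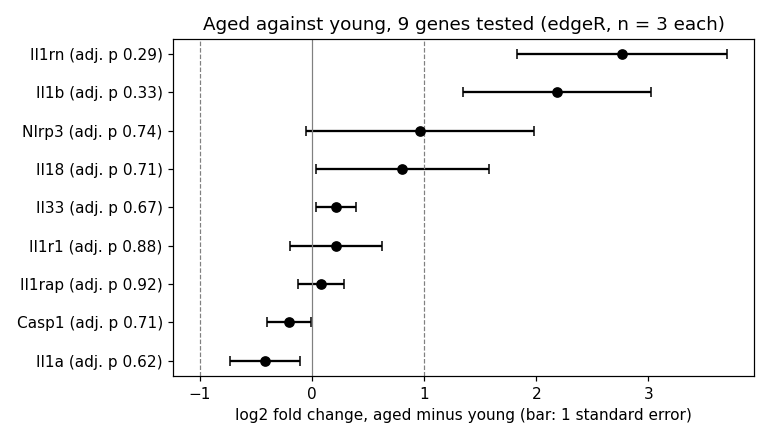
Log2 fold change (aged minus young, x axis) of the 9 genes tested, with 1 standard error as the bar, dashed lines at -1 and 1, and edgeR's adjusted p beside each name. Il1rn (2.77) and Il1b (2.18) lie beyond 1 and the other 7 between -0.42 and 0.96.

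Among the agonists, Il1a did not follow Il1b. Il1a had a CPM of 281, 262 and 268 in young mice 1, 2 and 3 and of 113, 301 and 193 at 127, 131 and 136 weeks. The young mice were close together, and the 127- and 136-week mice lay below all of them while the 131-week mouse lay above. The log2 fold change was -0.42 (standard error, SE, 0.32, adjusted p = 0.62, edgeR). The SD of log2(CPM + 1) for Il1a was 0.051 among young mice (percentile 5.66 of all genes) and 0.70 among aged mice (percentile 90.6). The 127- and 136-week mice were also those with the lowest Stab2, though not with the lowest Lyve1. The part of these markers in the Il1a values was not tested. Without the 131-week mouse both aged values were below the young ones, with a log2 fold change of -0.82 (edgeR, adjusted p = 0.149), and 34.5% of all genes then did not overlap. Within the clusters with many and few Lars2 and Rn45s counts the log2(CPM + 1) difference was -0.17 and -1.24, the latter between the 127-week mouse and young mouse 3 alone.

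Il1b, the macrophage cytokine gene, had a CPM of 4.24, 3.02 and 6.22 in young mice 1, 2 and 3 and of 19.7, 2.30 and 40.2 at 127, 131 and 136 weeks. The 127- and 136-week mice were above all young mice, and the 131-week mouse was the lowest of the 6. The means were 4.49 ± 1.61 in young and 20.7 ± 19.0 in aged ECs (n = 3, SD), with a fitted log2 fold change of 2.18 (SE 0.84, adjusted p = 0.335 in edgeR, unadjusted p = 0.0333). The 6 mice had nearly the same order for Il1b as for Ptprc, led by the 136-week mouse, the 127-week mouse and young mouse 3. When the mean log2(CPM + 1) of the pan-leukocyte markers was added to the fit, the log2 fold change of Il1b was 0.10 (edgeR, adjusted p = 1). That mean was 3.27 and 4.75 at 127 and 136 weeks and 1.99 to 2.35 in the other mice. It was highest in the same mice as Il1b, so this fit cannot separate them. Without the 131-week mouse the log2 fold change of Il1b was 2.71 (edgeR, adjusted p = 0.0508), and without the 136-week mouse 1.29 (edgeR, adjusted p = 0.723). In these bulk libraries, more cells that carry a transcript and more transcript per cell cannot be told apart.

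Il1rn, the antagonist gene, showed the same 2 mice on top. Its CPM was 0.744, 0.496 and 1.04 in young mice 1, 2 and 3 and 3.54, 0.895 and 11.8 at 127, 131 and 136 weeks. These values rest on 20, 11 and 33 counts in the young mice and on 103, 23 and 291 in the aged mice. The 131-week mouse fell inside the young range, just under young mouse 3. The log2 fold change was 2.77 (SE 0.94, adjusted p = 0.294 in edgeR, unadjusted p = 0.0199), and DESeq2 gave an adjusted p of 0.0232. With the pan-leukocyte term it was 0.70 (edgeR, adjusted p = 0.948), and without the 136-week mouse 1.52 (edgeR, adjusted p = 0.617). Within the library clusters the log2(CPM + 1) difference was 1.61 and 1.15 for Il1rn and 1.34 and 1.52 for Il1b. The SD of log2(CPM + 1) among aged mice was 1.38 for Il1rn and 1.88 for Il1b, above that of 98.9% and 99.8% of all genes, a description of these 3 mice.

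The balance of these transcripts within a mouse differed between the aged animals. The FPKM of Il1a was 32.6 to 68.6 times that of Il1b in the young mice and 97.6 times in the 131-week mouse, but 4.42 and 3.65 times in the 127- and 136-week mice. Il1a therefore still exceeded Il1b in every mouse, with 78.5% to 99.0% of their summed FPKM. Relative to Il1b, the antagonist Il1rn had 0.0728 to 0.0862 of its FPKM in young mice and 0.0908, 0.188 and 0.148 at 127, 131 and 136 weeks. Every aged ratio lay above every young ratio, but narrowly, at 0.0862 in young mouse 3 against 0.0908 at 127 weeks. Il1rn held only 20, 11 and 33 counts in young mice 1, 2 and 3 and 23 at 131 weeks. The difference was not tested, and no share of other gene pairs is given to set beside it. All 6 mice had less Il1rn than Il1b. Over the agonists Il1a, Il1b, Il18 and Il33, Il1a held 78.2% to 79.0% of the summed FPKM in young mice and 47.5%, 80.9% and 60.9% at 127, 131 and 136 weeks.

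**Figure D3:**
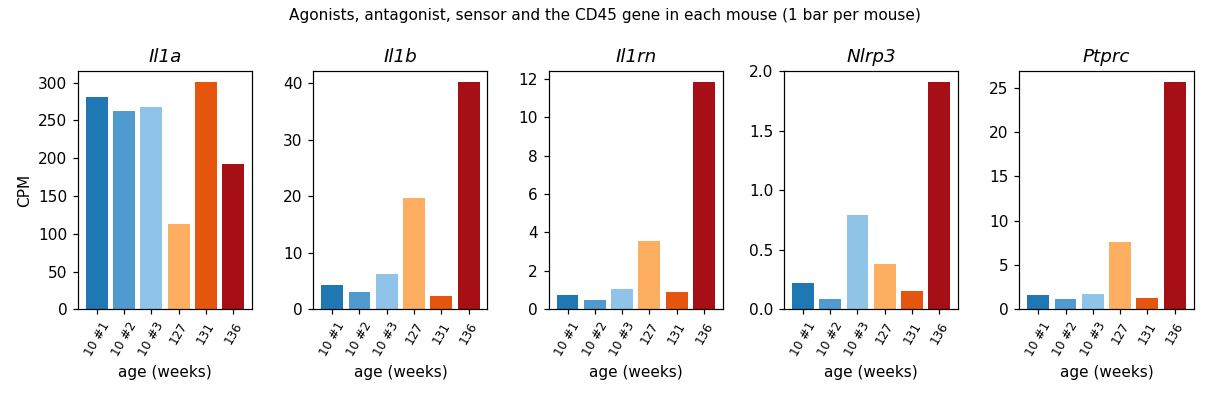
CPM (y axis, from 0, own scale per panel) of Il1a, Il1b, Il1rn, Nlrp3 and the CD45 gene Ptprc, with 1 bar per mouse and age in weeks on the x axis. The 136-week mouse has the tallest bar for Il1b, Il1rn, Nlrp3 and Ptprc, the 131-week mouse is within the young range for Il1rn, Nlrp3 and Ptprc and below it for Il1b, and Il1a is lowest at 127 weeks (113 CPM).

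Il33, the alarmin gene that is known from EC nuclei, differed little between the mice but for 1. Its CPM was 108, 107 and 96.4 in young mice 1, 2 and 3 and 152, 103 and 105 at 127, 131 and 136 weeks, and the 127-week mouse stood apart from the other 5. The log2 fold change was 0.22 (SE 0.18, adjusted p = 0.666, edgeR), and 0.013 without the 127-week mouse (edgeR, adjusted p = 0.979). Il18 was scarce, with 3 to 16 counts in young and 6 to 35 in aged mice, where 3 counts were taken as the floor. Its CPM was 0.596, 0.135 and 0.473 in young mice 1, 2 and 3 and 0.585, 0.233 and 1.42 at 127, 131 and 136 weeks. Only the 136-week mouse was above all young mice, and the log2 fold change of 0.80 (SE 0.77, adjusted p = 0.712, edgeR) fell to 0.00011 without it.

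The receptor genes showed no common direction. Il1r1 had a CPM of 83.6, 112 and 112 in young mice 1, 2 and 3 and of 201, 98.1 and 58.2 at 127, 131 and 136 weeks. The aged mice thus held both the highest and the lowest value of the 6. The log2 fold change was 0.22 (SE 0.41, adjusted p = 0.879, edgeR), and it turned to -0.39 without the 127-week mouse (edgeR, adjusted p = 0.575). Within the library clusters the log2(CPM + 1) difference was -0.35 and 0.83. Il1rap, which both the IL-1 and the IL-33 receptor need, varied least among the aged mice. Its CPM was 13.03, 11.01 and 9.72 in young and 11.7, 11.4 and 12.5 in aged mice (127, 131 and 136 weeks), with a log2 fold change of 0.079 (SE 0.20, adjusted p = 0.917, edgeR). The FPKM of Il1r1 was 5.31 to 9.34 times that of Il1rap in young and 14.1, 7.48 and 3.86 times at 127, 131 and 136 weeks.

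Il1rl1, the gene of the IL-33 receptor ST2, was near the limit of detection. It held 2, 0 and 0 counts in young mice 1, 2 and 3 and 0, 9 and 5 at 127, 131 and 136 weeks. It did not reach the minimum CPM and was not tested, and a count of 0 allowed up to 0.135 CPM in these libraries. Its ligand gene Il33 was thus measured at 2364 counts or more in every mouse while the receptor gene was at 9 counts or fewer. Mast cells and type 2 lymphoid cells are known to carry ST2, and the summed CPM of 8 of their markers was 125 to 266 in young and 94.6 to 197 in aged ECs. Nearly all of it came from Hdc, the histidine decarboxylase gene, at 94.6 to 265 CPM, while Mcpt4 was at 0 in 5 of the 6 libraries and Cpa3 at 0.690 CPM or less. Their part in the Il1rl1 counts was not tested.

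Casp1 and Nlrp3 differed in level by far more than in age. Casp1 had a CPM of 58.8, 59.8 and 49.0 in young mice 1, 2 and 3 and of 55.7, 53.4 and 36.4 at 127, 131 and 136 weeks. The 136-week mouse was the lowest and the other aged mice lay within the young range. The log2 fold change was -0.20 (SE 0.19, adjusted p = 0.711, edgeR). Nlrp3 held 6, 2 and 25 counts in young mice 1, 2 and 3 and 11, 4 and 47 at 127, 131 and 136 weeks, or 0.223, 0.0903 and 0.789 CPM against 0.378, 0.156 and 1.91 CPM. The order of the mice again began with the 136-week mouse, followed by young mouse 3. The log2 fold change of 0.96 (SE 1.01, adjusted p = 0.741, edgeR) turned to -0.55 without the 136-week mouse (edgeR, adjusted p = 0.947).

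**Figure D4:**
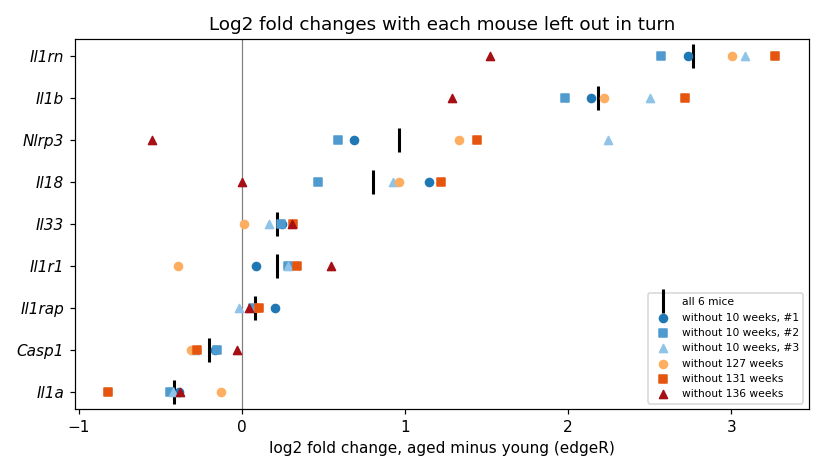
Log2 fold change (aged minus young, edgeR, x axis) of the 9 genes tested with all 6 mice (black bar) and with each mouse left out (1 point each). Leaving out the 136-week mouse moved Il1rn to 1.52, Il1b to 1.29 and Nlrp3 to -0.55, and leaving out the 127-week mouse moved Il1r1 to -0.39.

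The nearest profiles over the 6 mice were sought among the 10223 other genes with a mean CPM of 5 or more (10224 where the member itself was under 5), by the Euclidean distance between centred log2(CPM + 1) values. For Il1b these were Clec7a (0.513) and Zbp1 (0.514), against a length of 3.23 of its own profile, and for Il1rn Ctss (0.372) and Ctsc (0.436), against 2.66. Clec7a encodes the myeloid receptor dectin-1, and Ctss and Ctsc encode cathepsins that are abundant in myeloid cells. Neither these genes nor Zbp1, nearly as close to Il1b as Clec7a, are in the marker lists used here. The cells that the transcripts came from were not tested. For Il1a they were Hoxb5 (0.247) and Enho (0.39), for Nlrp3 Rsad2 (0.206) and Stk38l (0.394), and for Il1r1 Pde1c (0.545) and Wnt9b (0.55), a Wnt ligand gene. Il18 lay nearest to Cdr2 and Phf11a, Il33 to Kdm8 and Zfand1, Casp1 to Tmem18 and Omd, and Il1rap to Phf6 and Tor1b, at distances of 0.0991 to 0.226.

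Other genes of the family and of the inflammasome were likewise not called in edgeR at an adjusted p. Of 13 other ligands, receptors and binding proteins, 6 were tested, 5 with a higher and 1 with a lower fitted level. Over all 14612 genes, 7450 had a higher one. The decoy receptor gene Il1r2 had an FPKM of 0.568, 0.0383 and 0.879 in young mice 1, 2 and 3 and 3.17, 0.427 and 4.77 at 127, 131 and 136 weeks, a log2 fold change of 2.30 (SE 0.90, adjusted p = 0.339, edgeR). As for Il1b, the 136-week mouse was the highest and the 127-week mouse the next. The 131-week mouse lay inside the young range of Il1r2. Sigirr, an inhibitory receptor gene, and Il18bp, which encodes the secreted inhibitor of IL-18, were the most abundant, at 27.7 ± 1.48 and 25.7 ± 1.24 FPKM in young and 26.0 ± 3.85 and 26.5 ± 8.0001 in aged ECs (n = 3, SD). Their log2 fold changes were -0.074 and 0.054.

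Of 25 other inflammasome sensors, adaptors and pore proteins, 21 were tested, 14 with a higher and 7 with a lower fitted level (median log2 fold change 0.32). Over all 14612 genes, 7450 had a higher and 7162 a lower one. Aged and young values did not overlap for 5 of the 21, beside 17.9% of all genes. Casp12, which encodes an inflammatory caspase, had an FPKM of 5.79, 6.51 and 5.31 in young mice 1, 2 and 3 and of 14.9, 10.6 and 16.6 at 127, 131 and 136 weeks, so that every aged mouse exceeded every young mouse. Its log2 fold change was 1.27 (SE 0.21, adjusted p = 0.146 in edgeR, unadjusted p = 4.43e-04). Ninj1, which encodes a membrane-rupturing protein, was at 95.6 ± 14.3 FPKM in young and 142 ± 16.9 in aged ECs (n = 3, SD) and did not overlap either (log2 fold change 0.58, adjusted p = 0.233, edgeR). Txnip, whose product can bind NLRP3, had the highest level of the list and was lower in every aged mouse, at 653 ± 36.6 against 447 ± 155 FPKM (n = 3, SD, log2 fold change -0.54, adjusted p = 0.459, edgeR). Mefv, a sensor gene, was listed at 0, 0.0151 and 0.0646 FPKM in young mice 1, 2 and 3 and at 0.386, 0.0776 and 0.491 at 127, 131 and 136 weeks. These values rest on 0, 1 and 6 counts in the young mice and on 37, 6 and 37 in the aged mice. Young mouse 3 and the 131-week mouse thus held the same count, so its lack of overlap is narrow. Panx1, a channel gene, had a log2 fold change of 1.61 (adjusted p = 0.293, edgeR) with overlapping groups. The unadjusted threshold was met by 3 of the 21, Casp12, Mefv and Panx1, all higher, where 6.06% of all genes were.

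Of 18 genes of the relay from the receptors to NF-κB, 10 had a higher and 8 a lower fitted level, where 7450 of all 14612 genes had a higher one. Their median log2 fold change was 0.016 against 0.0094 over all genes. None met the unadjusted threshold with a log2 fold change beyond 1, while 2 of the 18 had an unadjusted p below 0.05, as did 13.6% of all genes. The adaptor gene Myd88 was at 42.6, 45.3 and 71.1 FPKM in young mice 1, 2 and 3 and at 97.7, 69.3 and 89.5 at 127, 131 and 136 weeks (log2 fold change 0.70, adjusted p = 0.286, edgeR). The 131-week value fell just under young mouse 3. Tollip, a negative regulator, was at 68.6 ± 6.69 in young and 63.4 ± 11.04 FPKM in aged ECs (n = 3, SD).

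Genes that IL-1 is known to induce in ECs mostly had higher fitted levels in aged ECs, and none passed an adjusted p of 0.05 in edgeR. They are also induced by tumour necrosis factor and by other signals to NF-κB, and this list of 26 was written with earlier results on some of its genes known. Of the 24 tested, 23 had a higher fitted level, where 7450 of all 14612 genes had one, with a median log2 fold change of 1.53. At an unadjusted p below 0.05, 17 were higher beyond the fold and 0 lower, where 6.06% of all genes were. For 17 every aged value exceeded every young value, where 9.62% of all genes did so. DESeq2 called 16 of the 24. In the 131-week mouse, 18 of the 24 lay above all young mice and 2 below all of them, and 22 were above at 127 weeks and 21 at 136 weeks. The shares of all genes above all young mice were 26% at 131 weeks, 30.5% at 127 weeks and 34.1% at 136 weeks. The 131-week mouse had the lowest Il1b (2.30 CPM) and the highest Il1a (301 CPM) of the 6 mice. The relation of either to these genes was not tested.

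The adhesion molecule gene Selp was at 90.7, 99.6 and 109 FPKM in young mice 1, 2 and 3 and at 266, 254 and 243 at 127, 131 and 136 weeks, with every aged mouse far above the young mice. Ptgs2, which encodes the cyclooxygenase that IL-1 induces, was at 0.601, 0.298 and 0.0868 in young and at 2.76, 1.98 and 11.1 FPKM in aged mice (127, 131 and 136 weeks), a log2 fold change of 4.04 (SE 0.88, adjusted p = 0.188, edgeR). The adhesion molecule genes Sele, Icam1 and Vcam1 were at 20.0 ± 8.39, 235 ± 56.6 and 267 ± 16.9 FPKM in young ECs and at 120 ± 29.6, 692 ± 222 and 613 ± 154 in aged ECs (n = 3, SD). Irf1, an interferon-response factor gene, and Tnfaip2 had log2 fold changes of 1.49 and 1.804. None of these values overlapped between the ages. Tnfaip3, a feedback inhibitor of NF-κB, was at 18.6 ± 4.80 in young and 92.7 ± 61.8 FPKM in aged ECs (n = 3, SD), and Nfkbia, the inhibitor with the highest level, at 942 ± 108 and 1651 ± 539. Both were above the young range in every aged mouse, with adjusted p of 0.165 and 0.299 (edgeR). With the pan-leukocyte term the median log2 fold change of the list was 1.02 and 21 of 24 were higher, and without the 136-week mouse it was 1.29 with 22 higher. For the 9 members tested the median was 0.021 with that term and 0.041 without that mouse.

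**Figure D5:**
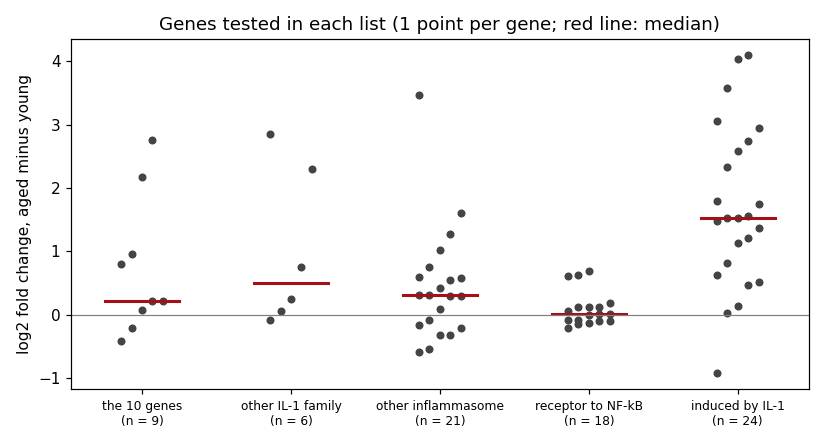
Log2 fold change (aged minus young, edgeR, y axis) of each gene tested in the 5 lists, with 1 point per gene and the median as a red line. The medians are 0.22 for the 10 genes (9 tested), 0.50 for the rest of the family, 0.32 for other inflammasome genes, 0.016 for the relay to NF-κB and 1.53 for genes that IL-1 induces.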

How the data were processed

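Base calls were made by the authors with CASAVA (version 1.8.2), and 75-base single-end reads were mapped to mm9 with TopHat (version 2.1.0). The authors deposited raw whole-number counts for each gene symbol and FPKM values from Cuffnorm (version 2.2.1), scaled between samples. The counting program, annotation and strand setting are not given in the sources used here. Cells were selected on CD31 and CD45, so Pecam1 and Ptprc bear on the sort.

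The 14612 of 24421 genes that reached 0.5 CPM in 1 sample or more were scaled by TMM factors (0.963 to 1.11) and compared between the ages in edgeR (glmQLFit and glmQLFTest, version 4.0.16, R version 4.3.3), in its newer form (legacy = FALSE), with Benjamini-Hochberg adjustment over all of them. A call was a log2 fold change beyond 1 whose adjusted p was below 0.05. CPM is relative to the scaled library, and standard errors are the log2 fold change over the root of F. DESeq2 (version 1.42.0) and limma (version 3.58.1) served as alternatives. The floor of 3 counts, 0.0947 to 0.135 CPM, covers counting error only. The methods state that 3 independent samples were collected per age, and no pair of replicates agreed within sampling noise (smallest chi-square per degree of freedom 20.2).

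The members and lists were chosen with earlier results of these data known. Named genes are the 10 members, the list genes at an unadjusted p below 0.05 beyond the fold (at most 8 per list), the 2 most abundant per list, and the 2 nearest profiles. Positions are from GENCODE on mm9, and promoters from RefSeq on GRCm38.p6. Summed CPM of the other marker lists, in young and aged ECs, was 3335 to 5223 and 4472 to 4930 for large-vessel ECs, 128 to 472 and 202 to 691 for stellate cells, 9.88 to 26.1 and 16.7 to 23.1 for mesothelial and biliary cells, 76.8 to 138 and 63.7 to 76.5 for hepatocytes and 125 to 266 and 94.6 to 197 for mast and type 2 lymphoid cells, nearly all from Hdc.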

Additional observations from a re-analysis of the deposited data

How the results depend on the processing

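Of 179 refits of the log2 fold change of the 9 genes over 20 alternatives, 172 kept their direction and their side of the threshold, and Il1rn passed it with DESeq2 (2.83). Direction turned for Il1r1 without the 127-week mouse, Il1rap without young mouse 3 and Nlrp3 without the 136-week mouse, with ranges over the mice left out of -0.39 to 0.54, -0.019 to 0.20 and -0.55 to 2.24, and with the pan-leukocyte term for Il18 (-0.57), Casp1 (0.0077) and Nlrp3 (-1.36). The causes were not tested. Il1b ran from 0.10 to 2.71 and Il1rn from 0.70 to 3.27, with adjusted p from 0.0508 to 1 and from 0.0232 to 0.948. Nlrp3 was not tested in the filter on 3 samples.

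Where 0 of all genes were called, DESeq2 called 472, no filter on low counts 6, limma-voom 15, limma on log2(FPKM + 0.1) 2 with and 6 without a filter, the library cluster term 2 and the pan-leukocyte term 17, and leaving out each mouse gave 0 to 121. The unadjusted threshold gave 1087 genes, among them 2 of the 10 genes, 1 other family gene, 3 other inflammasome genes and 17 IL-1-induced genes. DESeq2 called 1 of the 10 genes, 1 other inflammasome gene and 16 IL-1-induced genes. Of the latter, 1 was called with no filter and 2 by limma-voom, and leaving out each mouse gave 0 to 3, beside 0 to 1 for other inflammasome genes. Added after the data were seen, the unadjusted threshold was met by 0 to 2 of the 10 genes, 14 to 18 IL-1-induced and 2 to 3 other inflammasome genes with each mouse left out, by 1 of the 10 with the library cluster term, and by 0 of the 10, 12 IL-1-induced and 1 other inflammasome gene with the pan-leukocyte term. The count of the 10 genes without overlap was 0 in CPM and in FPKM and 0 to 3 with each mouse left out, where 23.2% to 34.5% of all genes did not overlap (34.5% without the 131-week mouse, which gave the 3). Young mice carry numbers in the labels and aged mice do not. No paired analysis was possible because the ages share no replicate numbers. Members under about 50 counts in every library (Il18, Nlrp3, Il1rl1) are limited by depth. So is Il1rn in the young mice (20, 11 and 33 counts) and in the 131-week mouse (23 counts), which bears on its fold change.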
